A study of Mus musculus with 2 samples.

Results

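The genes of the proteasome, the particle that degrades ubiquitin-tagged proteins and supplies peptides to MHC class I molecules, were described in mature thymocytes in which CD8 was expressed constitutively from a transgene. The 43 members are all genes in the count files whose symbols are *Psma*, *Psmb*, *Psmc* or *Psmd* with a number, or *Psme1* to *Psme4*, out of 48321 genes listed. The series holds 1 condition in 2 libraries, called replicates 1 and 2 as in their labels, of RNA from sorted CD4- mature (CD24lo TCRβhi) thymocytes of MHC-IIo:CD8ab-Tg mice. These mice carry *Cd8* Δab/Δab, *I-Ab*-/-, *Cd4-Cre* and *Rosa26* 8a/8b on a C57Bl/6 background, so that every cell analysed lacked MHC-II and the endogenous CD8 chains. The CD8α and CD8β cDNAs sat in the *Rosa26* locus, were switched on by Cre under *Cd4* control, and gave less surface CD8 than the endogenous locus according to the study. The sample titles call the cells CD4-CD8- and the cell type field calls them CD8+ mature thymocytes, and the population is named here as in the study. The age and sex of the mice and how many mice went into a library were not given. Wild-type libraries were not analysed here, and no condition was compared with another.

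The core particle of the proteasome is a stack of rings. The outer rings are made of α subunits, which gate the entry, and the inner rings of β subunits, of which *Psmb5* (chymotrypsin-like activity), *Psmb6* (caspase-like) and *Psmb7* (trypsin-like) cut the substrate with an N-terminal threonine that is exposed when a propeptide is removed. In lymphoid cells, and in other cells after exposure to interferon-γ, *Psmb8*, *Psmb9* and *Psmb10* take the places of *Psmb5*, *Psmb6* and *Psmb7* to form the immunoproteasome. *Psmb11* takes the place of *Psmb5* in the thymoproteasome of cortical thymic epithelial cells, which presents the peptides on which CD8+ T cells are positively selected. The regulatory particle, a base with ATPases (*Psmc* genes) and a lid, binds and unfolds ubiquitinated proteins, and the *Psme* genes encode activators that can cap the core in its place.

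The 7 catalytic genes compared are paralogs that fall into 3 slots of the β ring, and the bases around the catalytic threonine are shown by slot. Each window was located by a run of residues set beforehand for its slot. Likeness within a slot was therefore partly fixed in advance and does not test the grouping. Each line shows 36 coding bases of GENCODE M21 (GRCm38), 5′ to 3′ on the gene's strand, with the codon of the catalytic threonine in capitals.
*Psmb5*: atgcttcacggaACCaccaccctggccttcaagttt
*Psmb8*: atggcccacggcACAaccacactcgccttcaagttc
*Psmb11*: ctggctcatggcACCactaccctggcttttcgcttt
*Psmb6*: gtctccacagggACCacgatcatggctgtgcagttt
*Psmb9*: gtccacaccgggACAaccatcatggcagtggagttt
*Psmb7*: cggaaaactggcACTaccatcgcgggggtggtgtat
*Psmb10*: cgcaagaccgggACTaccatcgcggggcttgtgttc
In these windows *Psmb8* shared 28 of 36 bases with *Psmb5*, *Psmb9* shared 29 with *Psmb6*, and *Psmb10* shared 28 with *Psmb7*. *Psmb11* shared 25 bases with *Psmb5* and 23 with *Psmb8*. Across slots the constitutive genes shared fewer bases, 20 between *Psmb5* and *Psmb6*, 16 between *Psmb5* and *Psmb7*, and 19 between *Psmb6* and *Psmb7*. The immune and thymic genes were not compared across slots. The threonine is codon 60 of 264 in *Psmb5*, 73 of 276 in *Psmb8* and 50 of 302 in *Psmb11*, codon 34 of 238 in *Psmb6* and 21 of 219 in *Psmb9*, and codon 44 of 277 in *Psmb7* and 40 of 273 in *Psmb10*. The windows of *Psmb8* (chr17:34199290-34199325, + strand), *Psmb11* (chr14:54625462-54625497, + strand), *Psmb7* (chr2:38643361-38643396, - strand) and *Psmb10* (chr8:105937682-105937717, - strand) lie in 1 exon each. Those of *Psmb5* (chr14:54616819-54617826, - strand), *Psmb6* (chr11:70525484-70525908, + strand) and *Psmb9* (chr17:34185774-34187261, - strand) are cut by an intron.

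The libraries held 16732644 (replicate 1) and 16245849 (replicate 2) reads counted on genes, and levels are given as CPM, a gene's counts scaled by that total. The limit set for a count of 0 is 3 counts of the total, 0.179 and 0.185 CPM, and such limits and the intervals below cover counting error only, since reads are not independent molecules. All 8 T cell genes checked (*Cd3e*, *Lck*, *Cd8b1* and others) lay between 112 and 811 CPM. Of these, *Cd8a* and *Cd8b1* were carried as transgene cDNAs, so their reads can come from the transgenes. All 5 genes of mature thymocytes (*Klf2*, *S1pr1* and others) lay between 249.6 and 719.6 CPM. Of 5 genes of immature thymocytes, *Dntt* was highest at 13.2 ± 0.282 CPM (SD, n = 2) and *Ptcra* had 2 counts in each library. The libraries stood apart in *Xist*, expressed from the inactive X chromosome, with 34 and 25266 counts, and in the Y-linked *Ddx3y* with 2450 and 0 counts, so they were not made from the same mouse. The spread between the libraries therefore holds differences between mice, sex included, together with technical ones, and these cannot be told apart. *Psmd10*, the proteasome gene on the X chromosome, had 400 and 403 counts.

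Of the 43 genes, 41 reached 1 CPM in both libraries, against 26.2% of all genes listed. All 41 also passed 10 CPM, 36 passed 50 CPM and 13 passed 100 CPM, against 17.7%, 8.06% and 4.03% of all genes. Together the members took 70426 reads (0.421%) of replicate 1 and 71800 (0.442%) of replicate 2, a summed level of 4314 ± 149 CPM (SD, n = 2). The median of the 43 genes was 80.4 CPM in the former library and 83.9 CPM in the latter. In RNA from a sorted population, fewer cells that express a gene and less RNA per cell cannot be told apart, and this holds for every level below. Reads come from any part of a transcript, so the levels of genes are compared only per kilobase (kb), with the merged exons of the gene as the main length, and CPM and shares of reads are given as the measured values, not corrected for length. Because merged exons also count rarely used exons and retained introns, the same values are given per kb of the coding transcript, the annotated transcript with the longest coding sequence. Per kb of merged exons the 41 genes had a median of 33.4 CPM per kb, against 7.30 for the 10355 protein-coding genes at 1 CPM or more, and 39 of the 41 lay above the latter. Per kb of coding transcript the medians were 56.2 and 11.2 CPM per kb, again with 39 of the 41 above.

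**Figure D1:**
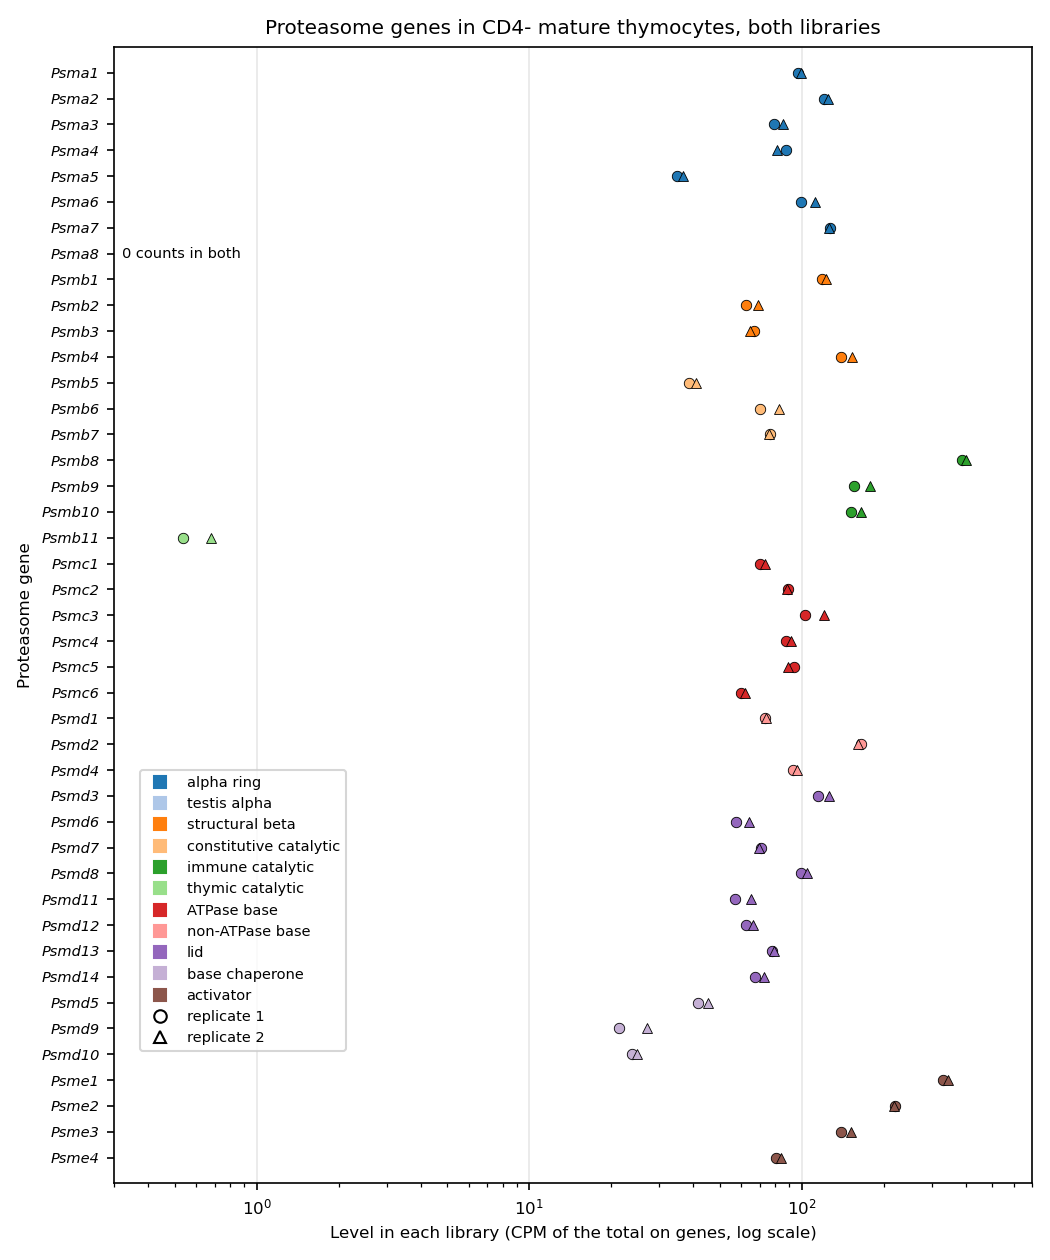
Level of each of the 43 proteasome genes in both libraries (x axis, CPM of the total on genes, log scale; circles replicate 1, triangles replicate 2, colours the groups of subunits). Most genes lie between 20 and 200 CPM with their libraries close together, *Psmb8* and *Psme1* have the most CPM (not corrected for length), *Psmb11* lies below 1 CPM and *Psma8* had 0 counts in both.

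The comparison of the immune with the constitutive catalytic subunits asks which form of the core the cells' RNA encodes. Per kb of merged exons *Psmb8* was 2.64 ± 0.0495 times *Psmb5*, *Psmb9* was 1.12 ± 0.0160 times *Psmb6* and *Psmb10* was 4.16 ± 0.295 times *Psmb7* (SD of the ratio, n = 2 libraries). The order of the *Psmb9* and *Psmb6* levels turned with the length used, while the other 2 pairs kept theirs.

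*Psmb8* encodes the immune chymotrypsin-like subunit, LMP7. It had 6469 and 6535 counts, 387 and 402 CPM, with a mean of 394 ± 11.1 CPM. *Psmb5*, whose place it takes, had 643 and 667 counts, 38.4 CPM (Wilson 95% interval 35.6 to 41.5) and 41.1 CPM (38.1 to 44.3). Before any correction for length *Psmb8* held 91.0% (exact Clopper-Pearson 95% interval 90.3% to 91.6%) and 90.7% (90.05% to 91.4%) of the reads of the pair, from merged exons of 3381 bases against 899 for *Psmb5*. On merged exons *Psmb8* was at 114 and 119 CPM per kb and *Psmb5* at 42.7 and 45.7. By coding transcript the values were 237 and 247 CPM per kb for *Psmb8*, and those of *Psmb5* were the same, since its merged exons are as long as its coding transcript. The ratio was then 5.48 ± 0.103. A read from *Psmb5* can also match other annotated genes: 57.1% of the 50-base windows of its coding transcript occur in another annotated transcript, mainly the pseudogene *Gm3375* (0 counts in both libraries), *Mir686*, which overlaps 109 exonic bases on the same strand, and the pseudogene *Psmb5-ps* (0 and 1 counts). Reads placed in more than 1 position were not counted on genes. With all counts of a gene divided by the number of windows that occur in no other annotated transcript (unshared windows), a length that assumes no read came from the shared ones, *Psmb5* was at 109 ± 5.09 CPM per kb, *Psmb8* at 265 ± 7.44, and the ratio was 2.44 ± 0.0457.

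*Psmb9* encodes the immune subunit of the caspase-like slot, LMP2, which lost that activity and favours cuts after hydrophobic residues. It had 2606 and 2900 counts, 156 and 179 CPM, and *Psmb6* had 1180 and 1340 counts, 70.5 and 82.5 CPM. *Psmb9* held 68.8% (67.3% to 70.3%) of the pair's reads in replicate 1 and 68.4% (67.0% to 69.8%) in replicate 2. Divided by merged exons, *Psmb9* was at 42.6 and 48.8 CPM per kb and *Psmb6* at 37.7 and 44.1, so that the ranges of the genes overlapped across the libraries even though *Psmb9* was the higher within each. Per kb of coding transcript *Psmb9* was at 115 and 132 CPM per kb and *Psmb6* at 88.4 and 103, a ratio of 1.29 ± 0.0185. Per kb of the longest annotated transcript *Psmb9* was below *Psmb6*, with a ratio of 0.732 ± 0.0105. Of the 3 pairs it was the one whose order depended on the length.

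*Psmb10* encodes the immune subunit of the trypsin-like slot, MECL-1. It had 2528 and 2691 counts, 151 and 166 CPM, and *Psmb7* had 1285 and 1237 counts, 76.8 and 76.1 CPM. Of the reads of the pair, *Psmb10* held 66.3% (64.8% to 67.8%) and 68.5% (67.0% to 70.0%). By the same length *Psmb10* was at 88.6 and 97.2 CPM per kb and *Psmb7* at 22.4 and 22.3. *Psmb7* has 3421 bases of merged exons but a coding transcript of 1160 bases, and per kb of the latter it was at 66.2 and 65.6 CPM per kb, against 115 and 126 for *Psmb10*. The ratio then fell from 4.16 to 1.83 ± 0.130. Of the coding transcript of *Psmb7*, 28.1% of the windows overlap *Nek6* on the opposite strand, and with all counts divided by unshared windows the ratio was 1.31 ± 0.0932. Reads from the overlap, if they were counted on *Psmb7*, are still in that value.

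Summed over the 3 slots, the immune genes made up 70.4% ± 0.132 of the catalytic level per kb of merged exons and 70.3% ± 0.105 per kb of coding transcript (SD, n = 2). Across the 5 lengths tried the share ran from 63.4% to 78.8%. By CPM the immune genes summed to 693 and 746 CPM and the constitutive genes to 186 and 199.7 CPM. Antigen presenting cells, which also use the immunoproteasome, were represented by 8 markers that summed to 4.18 and 5.11 CPM, of which *Cd74* had 47 and 56 counts. The constitutive genes were all present above 38 CPM, so the RNA of both forms of the core was measured in this population, and bulk libraries do not show whether single cells held both.

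**Figure D2:**
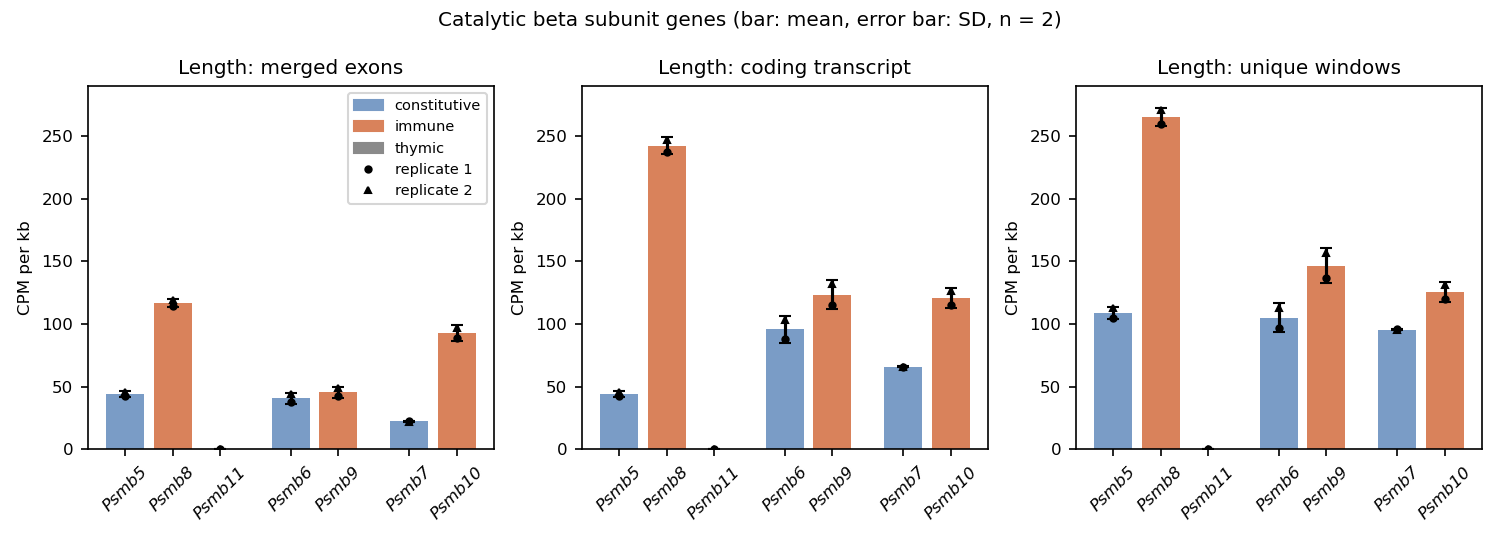
Level of the 7 catalytic β genes per kb of merged exons, of coding transcript and of unshared windows, titled unique windows (y axes, CPM per kb; bars the mean, error bars the SD of 2 libraries, points the libraries; blue constitutive, orange immune, grey thymic). *Psmb8* is highest at 117, 242 and 265 CPM per kb, and *Psmb11* cannot be told from the baseline at this scale.

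**Figure D3:**
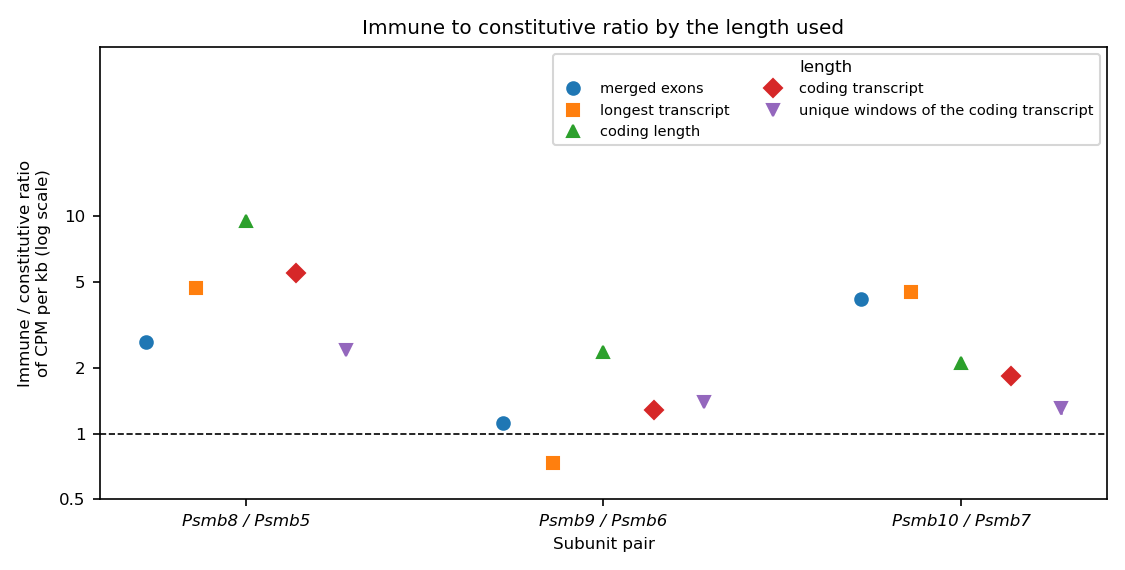
Ratio of the immune to the constitutive gene of each slot (y axis, log scale, mean of 2 libraries) under the 5 lengths by which counts were divided. The *Psmb8* to *Psmb5* ratio stays above 2 and the *Psmb10* to *Psmb7* ratio above 1, while *Psmb9* to *Psmb6* runs from 0.732 to 2.38 and crosses the dashed line at 1.

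The thymic subunit gene *Psmb11*, on the contrary, was near the floor. It had 9 counts in replicate 1, 0.538 CPM (Wilson 95% interval 0.283 to 1.02), and 11 counts in replicate 2, 0.677 CPM (0.378 to 1.21). Per kb of merged exons its level was 0.127 ± 0.0205 CPM per kb, *Psmb5* was 352 ± 40.7 times as high and *Psmb8* 930 ± 125 times. The *Psmb5* to *Psmb11* ratio ran from 75.5 to 733 over the 5 lengths. *Psmb11* lies 3410 bases from *Psmb5* on chromosome 14, on the opposite strand (*Psmb5*, 14:54614119-54618022; *Psmb11*, 14:54621433-54629556). Of 10 genes that mark cortical thymic epithelium, 5 had 3 counts or fewer in each library, among them the defining transcription factor gene *Foxn1* (1 and 0 counts), *Krt8* (1 and 3) and *Enpep* (1 and 0). *Prss16* had 5 and 13 counts, *Krt18* 2 and 4, *Epcam* 50 and 53 and *Ccl25* 125 and 147. *Ly75*, which T cells also express, had 1999 and 1656 counts and made up most of the list's sum of 131 and 116 CPM. All 4 markers of medullary epithelium had 3 counts or fewer. The part of such cells in the few *Psmb11* reads was not tested. *Psma8*, the α subunit of the testis, had 0 counts in both libraries. Of 6 testis germ cell markers, *Tnp1* and *Acr* had 0 counts as well, *Ddx4* had 0 and 1, and *Prm1* was the highest with 17 and 26.

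The α ring and the structural β subunits form the rest of the core. By merged exons the 7 α genes ran from *Psma3*, at 20.4 and 22.0 CPM per kb, to *Psma6*, at 80.8 and 90.6. Per kb of coding transcript *Psma7* was the highest at 138 ± 0.444 CPM per kb, and *Psma5* (28.8 ± 1.05) and *Psma3* (29.0 ± 1.54) were the lowest and did not differ beyond their spread. Of the windows of *Psma5*, 55.4% occur in another transcript, chiefly the pseudogene *Gm8394*, which had 0 counts. With all counts divided by unshared windows *Psma5* was at 67.2 CPM per kb and *Psma3* at 37.8. *Psma1* had 96.5 and 99.0 CPM and *Psma2* 120 and 125 CPM. Per kb of merged exons they had 33.1 ± 0.604 and 33.4 ± 0.907 CPM per kb and did not differ beyond their spread. *Psma4* had 35.7 ± 1.84 by that length. Per kb of coding transcript *Psma1*, at 81.4 ± 1.49 CPM per kb, was above *Psma2*, at 42.1 ± 1.14. The subunits of a ring are present in equal number in the particle, but the highest α gene was 4.05 (merged exons) and 4.80 (coding transcript) times the lowest.

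Among the 4 structural β genes the highest, *Psmb4*, was at 2.85 times the lowest, *Psmb1*, per kb of merged exons and 1.798 times per kb of coding transcript. *Psmb4* had 139 and 153 CPM. *Psmb1* had 119 and 123 CPM, *Psmb2* 62.2 and 69.1 CPM, and *Psmb3*, of whose windows 55.8% are shared, 66.8 and 64.8 CPM. Divided by unshared windows, *Psmb3* and not *Psmb4* was the highest, at 208 ± 4.46 CPM per kb against 129 ± 8.89, and *Psmb1* stayed the lowest at 72.7 ± 1.78. How the catalytic genes stood against these neighbours depended on the length. By merged exons the structural genes ran from 26.3 to 74.9 CPM per kb, *Psmb8* (117 ± 3.27) and *Psmb10* (92.9 ± 6.04) lay above all 4, and *Psmb9* (45.7 ± 4.40), *Psmb5* (44.2 ± 2.07) and *Psmb6* (40.9 ± 4.52) lay within that range, with *Psmb7* (22.4 ± 0.135) below it. By coding transcript the structural genes ran from 68.7 to 123, *Psmb8* (242 ± 6.80) lay above them, and *Psmb9* (124 ± 11.9), *Psmb10* (121 ± 7.85) and *Psmb4* (123 ± 8.52) did not differ beyond their spread. *Psmb6* (95.9 ± 10.6) was then within the structural range, while *Psmb7* (65.9 ± 0.398) and *Psmb5* (44.2 ± 2.07) were below it. By unshared windows *Psmb8* (265 ± 7.44) was again the highest, *Psmb3* lay above *Psmb9* (147 ± 14.1) and *Psmb10* (125 ± 8.16), and *Psmb5* (109 ± 5.09) and *Psmb6* (105 ± 11.6) were near the structural median of 105.

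The regulatory particle was represented by 17 genes, all at 57 CPM or more in both libraries, with a sum of 1472 ± 44.1 CPM. The 6 ATPase genes, *Psmc1* to *Psmc6*, form the ring that unfolds the substrate. By merged exons *Psmc5* was the highest at 65.5 ± 2.54 CPM per kb, and *Psmc6* (17.4 ± 0.449) and *Psmc2* (17.6 ± 0.0840) were the lowest and did not differ beyond their spread. By coding transcript *Psmc6* was the lowest at 27.2 ± 0.703 CPM per kb, *Psmc5* was at 69.4 ± 2.69, and the others lay between *Psmc1* (45.1 ± 1.51) and *Psmc4* (62.1 ± 1.71). Among the non-ATPase genes of the base, the scaffold genes *Psmd1* and *Psmd2* had 73.4 ± 0.417 and 163 ± 2.52 CPM, and *Psmd4*, whose product is a ubiquitin receptor, had 94.4 ± 2.44 CPM. *Psmd4* was 3.33 ± 0.0672 times *Psmd1* per kb of merged exons, 3.14 ± 0.0633 times per kb of coding transcript and 1.89 ± 0.0381 times per kb of the longest transcript.

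Of the 8 lid genes *Psmd11* was the lowest per kb, at 21.5 ± 2.06 CPM per kb of coding transcript, and *Psmd8* the highest, at 66.3 ± 2.50. *Psmd14*, which encodes the deubiquitinase that removes ubiquitin chains before degradation, had 67.6 and 72.6 CPM, and 45.5 ± 2.31 CPM per kb of coding transcript, beside a median of 44.1 for the lid genes. *Psmd3* (56.2 ± 3.65), *Psmd7* (44.5 ± 0.535), *Psmd6* (43.6 ± 3.38), *Psmd13* (39.3 ± 0.497) and *Psmd12* (33.7 ± 1.47) lay between, in CPM per kb of coding transcript. The 3 chaperones of base assembly leave the particle once it is formed. *Psmd5* had 43.4 ± 2.49 CPM, *Psmd10* 24.4 ± 0.637 and *Psmd9* 24.2 ± 4.15. Per kb of coding transcript *Psmd9* (9.32 ± 1.60) and *Psmd5* (9.87 ± 0.567) did not differ beyond their spread, and both were below the median of 11.2 for protein-coding genes, whereas *Psmd10* was at 17.0 ± 0.446.

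**Figure D4:**
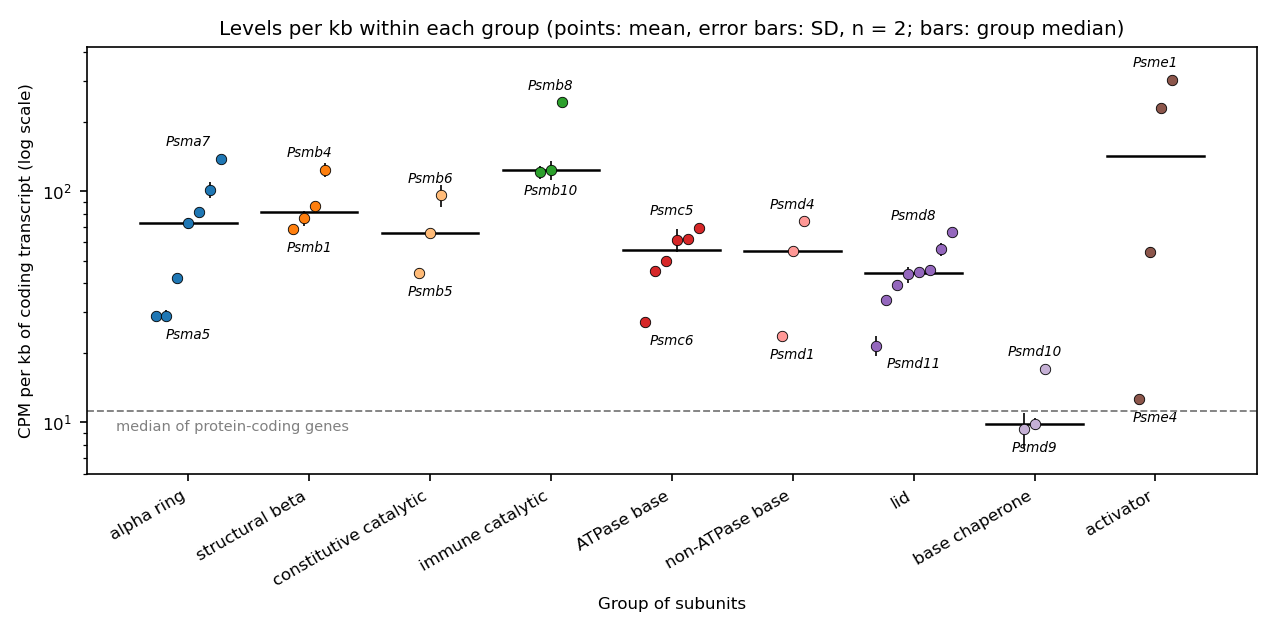
Level of each gene of a group per kb of coding transcript (y axis, CPM per kb, log scale; points the mean and error bars the SD of 2 libraries, horizontal bars the group medians, with the lowest and highest gene of each group named). Only *Psmd5* and *Psmd9* lie below the dashed line, the median of protein-coding genes at 1 CPM or more (11.2 CPM per kb), and the activators span the widest range, from 12.7 to 303. *Psma8* and *Psmb11* are not shown.

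The activators were the most uneven group. *Psme1* and *Psme2* encode the subunits of PA28αβ, an interferon-inducible cap that opens the core. *Psme1* had 5519 and 5583 counts, 330 and 344 CPM, and *Psme2* had 3690 and 3554 counts, 221 and 219 CPM. *Psme3* (PA28γ, a nuclear activator) had 139 and 151 CPM, and *Psme4* (PA200, also nuclear) 80.4 and 83.9 CPM. By merged exons the order was *Psme1* (152 ± 4.42 CPM per kb), *Psme2* (125 ± 0.707), *Psme3* (49.3 ± 2.77) and *Psme4* (9.80 ± 0.297), each apart from the next beyond the spread. The highest was 15.6 times the lowest by merged exons and 23.9 times by coding transcript. *Psme1* was 1.22 ± 0.0425 times *Psme2* per kb of merged exons, 1.33 ± 0.0460 times per kb of coding transcript and 0.743 ± 0.0258 times per kb of the longest transcript. *Psme2* shares 59.3% of its windows with other transcripts, chiefly *Psme2b*, a near-identical gene on chromosome 11 (11:48945354-48946190), and the pseudogene *Gm7928*. *Psme2b* had 156 and 166 counts and *Gm7928* 0, and with all counts divided by unshared windows *Psme1* was 0.625 ± 0.0217 times *Psme2*. The order of the pair therefore depends on the length, and the level of *Psme2* is uncertain because reads common to the copies were not counted. *Psme1* and *Psme2* lie 5911 bases apart on chromosome 14.

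Shared and overlapping sequence bears on other members as well. Of the 43 genes, 19 have no shared 50-base window in the coding transcript, 13 share more than 10% and 4 share more than 50%: *Psme2*, *Psmb5*, *Psmb3* and *Psma5*. Exons of 11 members overlap a gene on the opposite strand. The study names the library kit without saying whether it keeps the strand, and whether counting used the strand is not given in the sources used here. *Psmb8* (17:34197721-34201454) shares 498 exonic bases with the antisense gene *Gm20496*, which had 2166 and 2301 counts. Reads from the shared bases can be assigned to 1 of these genes only if both the libraries and the counting kept the strand. Otherwise the counts of each gene can hold reads of the other. *Psmb9* (17:34181987-34187764) shares 212 exonic bases with *Tap1*, a peptide transporter gene that lies between *Psmb9* and *Psmb8* in the 9956 bases that part them. *Psmb10* (8:105935735-105938444) has neither a shared window nor an overlap.

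Promoter windows from RefSeq (GRCm38.p6, 250 bases before to 50 after the start) were found for 36 of the 43 members, 39 windows in all. They were searched on both strands for the interferon response element (GAAA, any 2 bases, GAAA), TTCNNNGAA (the GAS element), TGACNNNGC (the core of the antioxidant response element) and CCAAT (the NF-Y box). The interferon response element was in 10.3% of the member windows, those of *Psmb3*, *Psmd4*, *Psmd9* and *Psme1*, against 3.44% of all 32851 windows. TTCNNNGAA was in 5.13% (*Psmb8* and *Psmd2*) against 8.30%, TGACNNNGC in 15.4% (6 members) against 12.4%, and CCAAT in 35.9% (14 members) against 37.4%. Among the immune genes and interferon-inducible activators, *Psmb8* held TTCNNNGAA and *Psme1* the interferon response element, while *Psmb9*, *Psmb10* and *Psme2* held neither. Of the constitutive catalytic genes *Psmb5* and *Psmb6* held TGACNNNGC. These 4 matches are shown with 12 bases on each side, on the gene's strand and with the match in capitals.
*Psmb8* (chr17:34198086-34198118, +): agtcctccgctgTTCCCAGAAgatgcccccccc
*Psme1* (chr14:55578491-55578524, +): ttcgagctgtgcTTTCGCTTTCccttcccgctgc
*Psmb5* (chr14:54618022-54618054, -): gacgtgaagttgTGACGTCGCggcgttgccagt
*Psmb6* (chr11:70525336-70525368, +): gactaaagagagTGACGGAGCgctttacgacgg
The *Psme1* match is on the opposite strand and is shown as it reads on the gene's strand. Such matches describe the letters and not a site in use, and no windows for *Psma8*, *Psmb1*, *Psmb2*, *Psmb7*, *Psmc3*, *Psmd3* and *Psmd7* were found.

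Other genes of the pathway were measured in the same libraries. All 5 assembly chaperone genes of the core passed 1 CPM, from 7.62 (*Psmg3*) to 87.2 CPM (*Pomp*, which matures the β ring). The 6 associated genes found, among them *Adrm1*, *Usp14* and *Uchl5*, ran from 34.4 to 88.9 CPM. Among the regulators, *Nlrc5* and *Irf1*, which drive MHC class I and interferon-inducible genes, had 399 ± 27.5 and 273 ± 1.08 CPM. *Nfe2l1*, whose product restores proteasome gene expression when the proteasome is inhibited, had 106 ± 2.67 CPM, and *Nfe2l2* had 58.1 ± 3.27. The peptide transporter genes *Tap1* and *Tap2*, neighbours of *Psmb8* and *Psmb9*, had 439 ± 19.7 and 314 ± 3.64 CPM.

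The libraries were compared gene by gene with a two-sided exact binomial test of counts and Benjamini-Hochberg adjustment over the 15949 genes with at least 10 counts. The test covers counting error only, so its p-values do not measure the spread between libraries. With 1 group such a test compares these libraries and not a condition. Of the 42 members tested, 0 passed adjusted p under 0.05 and 2-fold, which 1.52% of all genes tested did. Without the minimum fold, 10 members (23.8%) were higher in replicate 2, against 13.5% of all genes, and 0 were higher in replicate 1, against 2.82%, with 14 members at an unadjusted p under 0.05. These shares are not matched for level. The test detects smaller differences in genes with more counts, and 41 members but only 17.7% of all genes listed reached 10 CPM. The 10 were *Psmb9*, *Psmb6*, *Psmb10* and *Psmb4* of the β ring, *Psma6*, *Psmc3*, *Psmd3*, *Psmd9*, *Psmd11* and *Psme3*. *Psmb9* was 0.20 higher in replicate 2 on the log2 scale (exact binomial test, adjusted p = 1.17e-05) and *Psmc3* 0.23 higher (adjusted p = 3.77e-05), both small in size. *Psmd9* had the largest log2 ratio, 0.35 (adjusted p = 0.00699), from 356 and 441 counts. Library size moved these calls. With TMM library sizes 2 members were higher in replicate 2 (*Psmb9* and *Psmc3*) and 2 in replicate 1 (*Psma4* and *Psmc5*). With DESeq2 library sizes 4 were higher in replicate 2 and 1 in replicate 1. The share of all genes passing is not given for these library sizes or for the unadjusted p. The counts under TMM and DESeq2 sizes therefore show only that the calls moved with library size. By edgeR's exact test, with the variation between samples set to a coefficient of 0.1, 0 members passed. The median log2 ratio of the members was 0.06 with totals and that of all genes tested 0.08, and all 42 members lay within the middle 90% of genes of similar level.

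**Figure D5:**
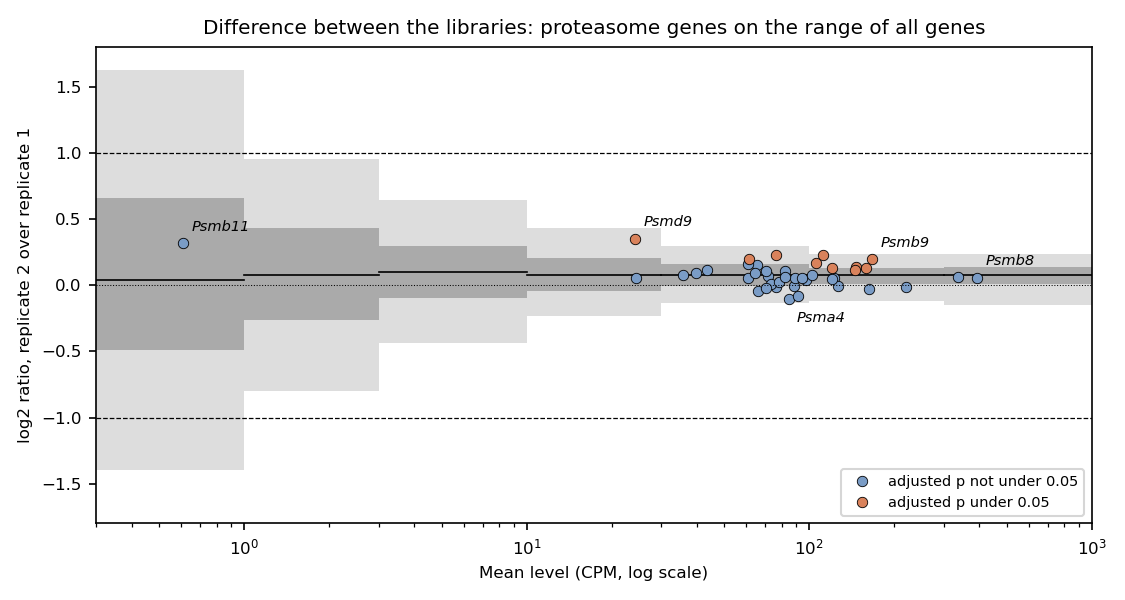
Log2 ratio of replicate 2 over replicate 1 (y axis) against the mean level (x axis, CPM, log scale) of the 42 members tested, over bands for all genes tested in bins of level (pale, the middle 90%; darker, the 25th to 75th percentile; black lines, the median). Orange points passed an adjusted p under 0.05 and blue points did not, and dashed lines mark 2-fold. The members lie between -0.11 (*Psma4*) and 0.35 (*Psmd9*), all within the middle 90% of genes of similar level.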

How the data were processed

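From RNA of sorted cells the authors made 2 poly(A) libraries, obtained single-end 50-base reads, mapped them to mm10 (GRCm38) with TopHat 2.1.1 and counted them per gene with HTSeq 0.6.1. The deposited values are raw whole-number counts per gene without normalization; annotation and strand setting are not given in the sources used here. Lines for reads on no gene, ambiguous or not unique were left out of totals: reads on genes were 40.6% and 41.2% of uniquely aligned reads, and no feature took 55.9% of them in both.

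Counts were divided by the total on genes (CPM), with mean and SD over 2 replicates, Wilson 95% intervals and a floor of 3 counts. Per-kb values used GENCODE M21 lengths. The libraries were compared by two-sided exact binomial test (scipy 1.17.1, statsmodels 0.14.6) with edgeR 4.0.16 and DESeq2 1.42.0 giving alternative library sizes. The script was tested on simulated data. By the rule for named genes any member could be named, with full values for catalytic, lowest and highest genes. Unshared-window lengths divide all counts of a gene by the 50-base windows of its coding transcript found in no other transcript, and reads were not recounted. The members, lists, motifs and tests were chosen with earlier results of these data known. Alternatives were other library sizes, other lengths, other minimum counts and each library left out. The coding transcript and unshared-window lengths were added after seeing the data.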

Additional observations from a re-analysis of the deposited data

How the results depend on the processing

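No paired analysis was possible because the series holds 1 group. The planned length from windows that occur once in the genome was not run, since no genome was used here. With totals that leave out mitochondrial and ribosomal RNA genes, the summed level rose from 4314 to 5035 CPM and the median member from 82.1 to 95.9 CPM, since the total is smaller. TMM and DESeq2 library sizes moved neither beyond the spread. Leaving out each library in turn gave 4209 to 4420 CPM summed, 80.4 to 83.9 CPM for the median member, ratios of 2.61 to 2.68 (*Psmb8* to *Psmb5*), 1.11 to 1.13 (*Psmb9* to *Psmb6*) and 3.95 to 4.36 (*Psmb10* to *Psmb7*), and an immune share of 70.3% to 70.5%. The ratios per kb, in the order *Psmb8* to *Psmb5*, *Psmb9* to *Psmb6* and *Psmb10* to *Psmb7*, were 4.68, 0.732 and 4.501 with the longest transcript, 9.50, 2.38 and 2.102 with coding length, 5.48, 1.29 and 1.83 with the coding transcript, and 2.44, 1.40 and 1.31 with unshared windows, so that the *Psmb9* to *Psmb6* order reversed with the longest transcript, in which nothing but the length was changed. The share was 72.0%, 78.8% and 63.4% with the longest transcript, coding length and unshared windows. The ratio of highest to lowest gene was taken within the α ring, structural β, ATPase base, non-ATPase base, lid and activator groups. The catalytic groups and base chaperones were not in this summary. Its median was 3.88 by merged exons, 2.70 by the longest transcript, 2.64 by coding length, 3.11 by coding transcript and 2.90 by unshared windows. It was 3.78 to 3.95 when a library was left out. The 0 members called between the libraries at 2-fold became 10 with no minimum fold.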
